A study of Homo sapiens with 6 samples.

Results

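The enzymes described here are 10 human proteins that bind manganese or are activated by it: the glutamine synthetase GLUL, the mitochondrial arginase ARG2, pyruvate carboxylase (PC), the mitochondrial phosphoenolpyruvate carboxykinase PCK2, the phosphatases PPM1A and PPM1B, the xylosyltransferases XYLT1 and XYLT2, and the proline peptidases PEPD and XPNPEP1. They were chosen for their known use of the metal, not for their values. Every probe set annotated to 1 of these symbols alone was taken, which gave 28 probe sets for the 10 genes, out of 18132 genes on the array. RNA came from SH-SY5Y, an immortal line of human sympathetic neuroblasts grown from a neuroblastoma. In 3 cultures the cells received 100 µM manganese for 24 h, a dose below the median lethal concentration by the labels, and 3 cultures were untreated controls. Growth medium for both groups was a mixture of MEM and F12 that contained fetal bovine serum, and the labels name neither the manganese salt nor a vehicle. Each culture gave 1 Affymetrix array. Arrays within a group carry the term biological replicate in their titles, with no word on separate passages or days, so p-values measure the spread between these arrays.

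Manganese is a cofactor in several compartments of the cell. Arginase holds a pair of manganese ions at its active site in the mitochondrion (ARG2) or the cytosol (ARG1), pyruvate carboxylase is a mitochondrial enzyme that can hold the metal, and many Golgi glycosyltransferases need it to bind their sugar nucleotide. Glutamine synthetase, PP2C-type phosphatases, phosphoenolpyruvate carboxykinase and xylosyltransferases work with manganese or magnesium. In brain tissue glutamine synthetase and pyruvate carboxylase are known mainly from astrocytes, whereas this line is derived from neuroblasts. The comparison asks whether cells given excess manganese alter the mRNA of the enzymes that use it. mRNA is the only layer measured, so metal loading, protein and activity are outside these data.

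Values are log2 RMA expression, and changes are manganese minus control on that scale. Of the noradrenergic marker genes 9 of 10 were tested, and their mean level was 10.83 to 10.89 on manganese arrays and 10.97 to 11.10 on control arrays, with 7 lower and 2 higher in manganese and 0 past the threshold. Of 10 markers of mesenchymal-type neuroblastoma or Schwann-like cells 8 were tested, with a mean of 6.94 to 6.99 on manganese arrays and 6.81 to 7.06 on control arrays. Of these, 5 were higher and 3 lower in manganese, with 0 past the threshold. Single genes of this class averaged from 4.64 (PRRX1) to 12.01 (TWIST1). VIM was bright too, at 11.33, 11.02 and 11.40 in manganese and 10.71, 10.50 and 10.21 in control, a change of 0.77 (limma adjusted p 0.152). The 3 lower genes of this class were FN1 at -0.49, COL1A2 at -0.16 and PRRX1 at -0.12. Among the noradrenergic markers, STMN2 was at -0.71 and ISL1 at -0.58 (limma adjusted p 0.297 and 0.351), and PHOX2A was at 0.22. CD44 and YAP1 were below the filter on dim probe sets. The 12 poly(A) spike-in probe sets averaged 7.80 to 7.91 on the manganese arrays and 7.79 in control 2, but 6.14 in control 1 and 5.81 in control 3. Control 1 correlated least with the rest, at r = 0.967 to 0.981 across the 13407 genes tested, which are not independent replicates, and its value was the highest or lowest of the 6 arrays for 64.9% of genes. The part of these array differences in the results below was not tested, so each enzyme is also given against each control.

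None of the 10 enzymes changed past the threshold after manganese. With limma over all genes, 0 of 10 reached an adjusted p of 0.05, against 0.142% of the 13407 genes tested. An alternative fit with array weights called 4 of 10 (ARG2, PCK2, PPM1A and XYLT2), but its weights did not converge, ran from 0.15 for control 1 to 8.22 for control 3, and called 29.4% of all genes. In the unweighted fit the smallest adjusted p, 0.360, was that of XYLT2, which was also the only member at an unadjusted p under 0.05 (1 of 10, against 12.8% of all genes). Changes were positive for 5 enzymes and negative for 5, with a median of 0.07 beside 0.02 over all genes. They ranged from -0.21 for XYLT1 to 0.40 for PCK2. Manganese and control arrays did not overlap for 2 of 10, XYLT2 (higher) and GLUL (lower), while 19.8% of all genes had groups that did not overlap. All 10 genes passed the filter through at least 1 probe set. Of their 28 probe sets 20 passed and 8 were too dim, and of the 20 tested one by one 0 had an adjusted p under 0.05 (background 0.107% of 29871) and 2 had an unadjusted p under 0.05 (background 12.5%).

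**Figure D1:**
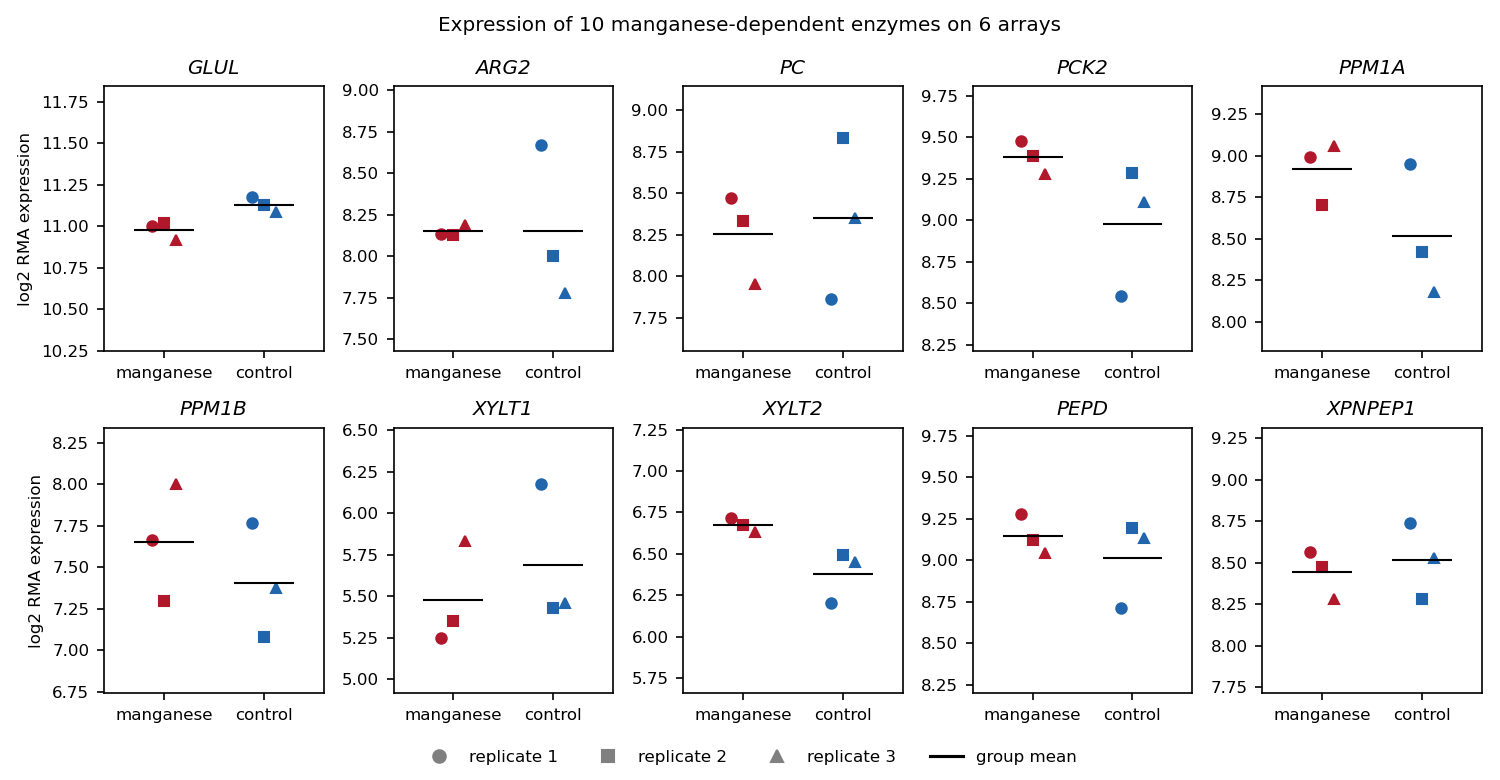
Log2 RMA expression (y axis, each panel spanning the same width) of the probe set that stands for each enzyme, with the 3 manganese arrays left of the 3 control arrays, a marker per array and a bar at the group mean. The groups are apart for XYLT2, with 6.64 to 6.72 in manganese and 6.20 to 6.49 in control, and for GLUL, while control 1 lies far from the other controls for several enzymes, ARG2, PCK2 and XYLT1 among them.

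Neither enzyme of nitrogen metabolism passed the test. GLUL, which joins ammonia to glutamate to make glutamine, gave 10.999, 11.02 and 10.92 on the manganese arrays, against 11.17, 11.13 and 11.08 on the control arrays, at probe set 11725521_x_at. Every manganese array lay below every control array, by a small margin. The change was -0.15 (SE 0.10, 95% interval -0.38 to 0.08, limma adjusted p 0.539), so the interval holds no fall larger than 1.299-fold. The control arrays agreed closely here, with an SD of 0.05, and 5.36% of genes had a smaller one. This probe set is marked by the manufacturer as holding probes that may bind other transcripts. A second GLUL probe set, marked as shared, gave -0.19, with groups that overlapped. The remaining one above the filter, marked as specific to the gene's transcripts, gave 8.84, 8.81 and 8.77 in manganese and 8.31, 8.91 and 8.86 in control, a change of 0.12 in the other direction, with control 1 the lowest array. The sign of the GLUL change thus differed between probe sets.

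ARG2, which splits arginine into ornithine and urea in mitochondria, averaged 8.15 ± 0.03 in manganese and 8.15 ± 0.47 in control (SD, n = 3 each). The single arrays stood at 8.13, 8.13 and 8.19 in manganese, against 8.67, 8.001 and 7.78 in control. The controls thus lay on both sides of a tight manganese group. The change of -0.00065 has a 95% interval of -0.49 to 0.49 (limma adjusted p 0.999), which allows a rise or a fall of up to about 1.40-fold. The second ARG2 probe set gave -0.05, with the same layout: 7.53 in control 1 and 6.55 and 6.58 in the other controls, around 6.80 to 6.86 in manganese. Against control 2 and control 3 alone ARG2 was 0.15 and 0.37 higher in manganese, and against control 1 it stood at -0.52. The cytosolic arginase ARG1 was too dim to be tested.

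PC and PCK2 act in sequence on the path from pyruvate to phosphoenolpyruvate, and neither passed the test. PC, which carboxylates pyruvate to oxaloacetate, gave 8.47, 8.33 and 7.95 in manganese, against 7.86, 8.83 and 8.35 in control. The ranges overlap almost wholly, and the change was -0.10 (SE 0.25, 95% interval -0.66 to 0.47, limma adjusted p 0.897), the widest interval of the 10 enzymes. Its second probe set gave 0.02. PCK2, which converts oxaloacetate to phosphoenolpyruvate and is a known target of the stress factor ATF4, gave 9.48, 9.39 and 9.28 in manganese, against 8.54, 9.28 and 9.11 in control. The manganese arrays lay above the controls except that manganese 3 was level with control 2. At 0.40 (SE 0.19, 95% interval -0.03 to 0.84, limma adjusted p 0.416) PCK2 had the largest change of the 10, just ahead of PPM1A. It was a 1.32-fold difference, and 11.3% of all genes tested differed by more. Its second probe set gave 6.54, 6.65 and 6.56 in manganese, against 5.93, 6.42 and 6.34 in control, with no overlap and a change of 0.36 (unadjusted p 0.0378, adjusted p 0.375). Both PCK2 probe sets were lowest in control 1. Without control 1 the change of PCK2 was 0.19 with a limma adjusted p of 0.493.

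The phosphatases PPM1A and PPM1B, whose known substrates include SMAD proteins and p38 for PPM1A and kinases of NF-κB signalling for PPM1B, had positive changes that did not pass. PPM1A gave 8.99, 8.70 and 9.06 in manganese, against 8.95, 8.42 and 8.18 in control. Control 1 lay within the manganese range, and the other controls were below all of them. The change was 0.40 (SE 0.20, 95% interval -0.07 to 0.87, limma adjusted p 0.441), and without control 1 it was 0.62 with an adjusted p of 0.135. The other PPM1A probe set above the filter gave 0.06, so the larger value was seen at 1 of 2. PPM1B gave 7.66, 7.30 and 8.002 in manganese, against 7.76, 7.08 and 7.37 in control. Both groups spread widely, with SDs of 0.35 and 0.34, and the change of 0.25 (95% interval -0.26 to 0.76, adjusted p 0.651) was smaller than either. It was 0.076 without manganese 3, 0.086 without control 2, and 0.43 without control 1 or without manganese 2. Its second probe set gave 0.13. A further 3 probe sets each for PPM1A and PPM1B were below the filter.

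ARG2 and PPM1A share an upstream sequence that the other 8 enzymes lack in the windows searched. RefSeq promoters, from 250 bases before to 50 bases after a start site (GRCh38.p14), matched all 10 genes with 15 windows. The palindromic cAMP response element TGACGTCA, which binds CREB and ATF family factors, was found in 2 of the 15, against 1.85% of all 35116 windows. The search was made after results of these arrays were known, because the factors ATF3 and CREB5, which bind this element, were 1.39 and 1.52 higher in manganese (limma adjusted p 0.00597 and 0.0380). Neither call held without control 3 or without any 1 of the manganese arrays, where limma called 0 genes (832 to 1223 at an unadjusted p under 0.05). The stretches below are shown so that the elements can be seen in place, with the element in capitals, 5′ to 3′ on the plus strand, at chr14:67619728-67619883 for ARG2 and chr14:60249012-60249059 for PPM1A.
ARG2: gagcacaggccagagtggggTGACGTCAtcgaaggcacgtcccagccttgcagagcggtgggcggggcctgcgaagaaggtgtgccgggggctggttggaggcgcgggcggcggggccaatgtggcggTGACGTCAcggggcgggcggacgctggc
PPM1A: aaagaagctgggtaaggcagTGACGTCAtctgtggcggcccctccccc
ARG2 holds 2 copies and PPM1A holds 1. Their changes were -0.00065 and 0.40, and neither passed the test. The core of the metal response element was read on both strands as TGCACNC (A form) or TGCGCNC (G form). The A form was found in 2 of the 15 windows, at XPNPEP1 and XYLT2, against 12.1% of all windows. The G form was found in 5 of the 15, at GLUL, PPM1A, XPNPEP1 and XYLT2, against 20% of all windows. For XPNPEP1 these 5 include overlapping windows that hold the same site. The amino acid response element core TGATGNAA, a form bound by ATF4, was in 0 of the 15 windows, PCK2 included, and in 3.62% of all. A match in these windows describes the letters only.

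The xylosyltransferases begin glycosaminoglycan chains in the Golgi by adding xylose to a serine of the proteoglycan core protein, and the 2 enzymes had changes of opposite sign. XYLT2, the form found in most tissues, gave 6.72, 6.67 and 6.64 in manganese, against 6.20, 6.49 and 6.45 in control, at probe set 11755177_s_at. All manganese arrays lay above all control arrays. The change was 0.29 (SE 0.12, 95% interval 0.03 to 0.56), a 1.23-fold difference with an unadjusted p of 0.0345 and a limma adjusted p of 0.360, and 21.3% of all genes differed by more. It was higher against each control, by 0.47, 0.18 and 0.22. The separation was seen at 1 of 3 XYLT2 probe sets, one that is marked as shared. The others gave 0.03, with cross-hybridizing probes, and -0.13, specific to the gene, and neither had separated groups. XYLT1 gave 5.25, 5.35 and 5.83 in manganese, against 6.18, 5.43 and 5.46 in control, from the 1 probe set that reads it. Control 1 was the highest array, and the change of -0.21 (95% interval -0.75 to 0.33, adjusted p 0.726) became 0.03 without it.

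Neither proline peptidase passed the test. PEPD, or prolidase, which frees proline from the end of dipeptides such as those of collagen breakdown, gave 9.28, 9.12 and 9.04 in manganese, against 8.72, 9.19 and 9.13 in control. Apart from control 1 the arrays of both groups lay together, and the change was 0.14 (95% interval -0.21 to 0.48, limma adjusted p 0.723). PEPD is read by 1 probe set, marked as shared. XPNPEP1, the cytosolic aminopeptidase that removes a residue in front of proline, gave 8.56, 8.48 and 8.28 in manganese, against 8.74, 8.28 and 8.53 in control. The groups overlapped, with a change of -0.08 (95% interval -0.41 to 0.26, adjusted p 0.853). Its dimmer second probe set gave 0.11.

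**Figure D2:**
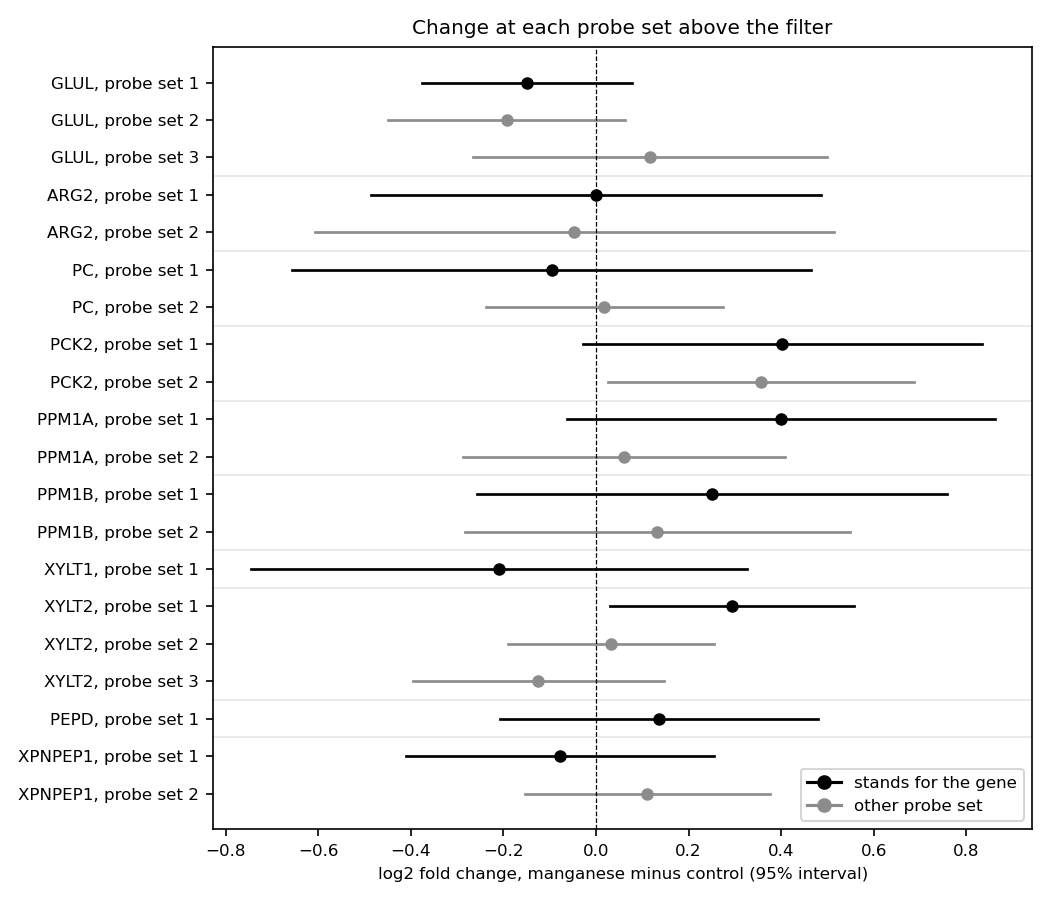
Log2 fold change, manganese minus control (x axis), with its 95% interval from the limma fit over all probe sets, for the 20 probe sets of the enzymes above the filter. Probe sets of a gene are numbered by falling mean level, and black marks the one that stands for the gene. Intervals leave out 0 for the second PCK2 probe set and the first XYLT2 probe set only, and the 3 XYLT2 values run from -0.13 to 0.29.

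Probe sets of the same enzyme did not always have changes of one sign, and whether they differ was not tested. Of the 8 enzymes with more than 1 probe set above the filter, 4 had changes of one sign at all of them (ARG2, PCK2, PPM1A and PPM1B) and 4 had both signs (GLUL, PC, XPNPEP1 and XYLT2). Without control 1 the values were -0.13, -0.18 and -0.077 for GLUL, -0.34 and -0.049 for PC, and 0.034 and 0.15 for XPNPEP1. Of these 4, XYLT2 alone then kept both signs. The probe sets of XYLT2 spanned 0.42, those of PPM1A 0.34 and those of GLUL 0.31, whereas those of PCK2 and ARG2 spanned 0.05 each. The 8 dim probe sets, with values from 2.83 to 4.42, had changes from -0.05 to 0.23 and were not tested.

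The spread of the controls was the wider one for most of these enzymes. It exceeded that of the manganese arrays for 8 of 10, and it lay above the median over all genes, 0.19, for 8 of 10. The median SD over all genes was 0.11 in manganese, so a wider control spread was not particular to these enzymes. Control 1 was the highest or lowest of the 6 arrays for 8 of the 10 enzymes (64.9% of all genes). Taken against each control in turn, 3 of 10 enzymes kept one sign (GLUL, PCK2 and XYLT2), beside 43.4% of all genes. PC was 0.39 higher in manganese against control 1 but stood at -0.58 against control 2. PPM1A was at -0.03 against control 1, 0.50 against control 2 and 0.74 against control 3, and PPM1B at -0.11, 0.58 and 0.28. XYLT1, PEPD, XPNPEP1 and ARG2 also changed sign with the control used. The 95% intervals of the 10 enzymes were 0.46 to 1.13 wide, beside a median width of 0.63 over all genes.

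**Figure D3:**
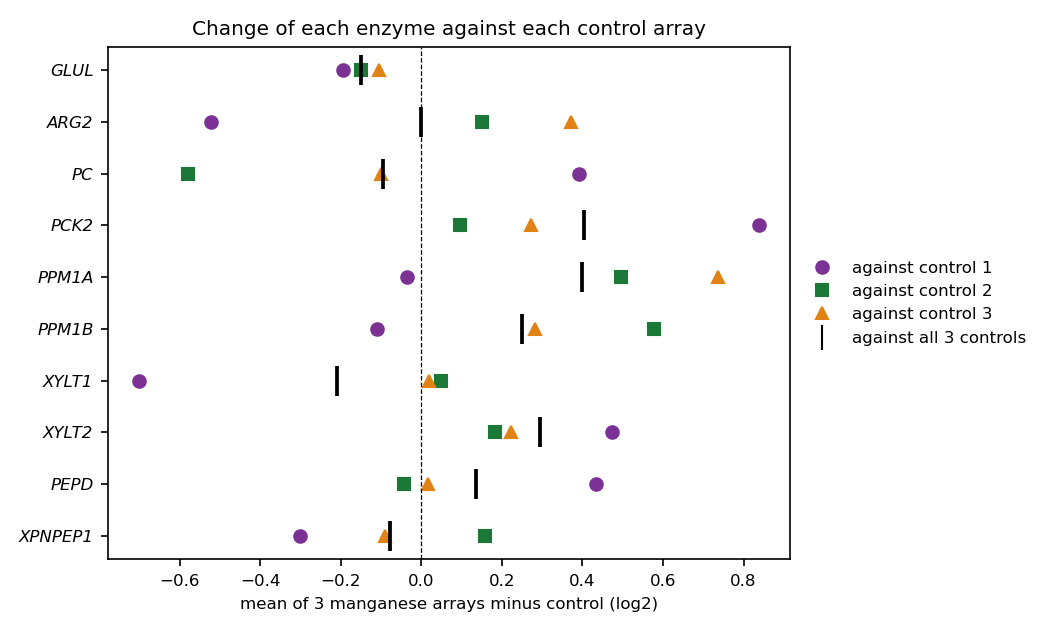
Mean of the 3 manganese arrays minus each control array (x axis, log2) for the 10 enzymes, with a black bar for the change against all 3 controls. Only GLUL, PCK2 and XYLT2 have all 3 points on one side of 0, and the circle for control 1 is the point farthest from the bar for all of them except GLUL and XPNPEP1.

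Related enzymes were also compared by the difference between them on each array, which removes what both share. The difference PC minus PCK2 was -1.004, -1.05 and -1.32 in manganese, against -0.68, -0.45 and -0.75 in control. All manganese arrays lay below all control arrays, and the shift of -0.50 reached an exact two-sided permutation p of 0.1, the smallest that 3 arrays against 3 can give (0.4 when adjusted over the 4 pairs). XYLT1 minus XYLT2 shifted by -0.50 as well, with values of -1.47, -1.32 and -0.80 in manganese and -0.02, -1.06 and -0.99 in control, and the groups overlapped (exact p 0.3, adjusted 0.6). Without control 1 this shift was -0.17, and with the mean of each gene's probe sets it was -0.28. PPM1A minus PPM1B shifted by 0.15 (exact p 0.6, adjusted 0.7) and PEPD minus XPNPEP1 by 0.21 (exact p 0.7, adjusted 0.7). No pair is shown to differ in its response, and none is shown to respond alike.

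The pathways around the enzymes were read from 7 lists with 149 different genes, of which 125 were tested. With limma, 0 of the 125 passed an adjusted p of 0.05 (0.142% of all genes), and 21 had an unadjusted p under 0.05 (12.8% of all genes). The median change over all genes was 0.02, and changes were positive for 54.1% of genes and negative for 45.9%. Groups did not overlap for 19.8% of all genes. The lists were chosen with earlier results of these arrays known.

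Around PC and PCK2, genes of anaplerosis, malate and phosphoenolpyruvate metabolism had 17 of 24 positive changes and a median of 0.18, with 0 past the threshold and 12 of 24 without overlap (19.8% of all genes). The glycolytic enolases ENO1 and ENO2 were at 0.48 and 0.41, with ENO1 at 13.31, 13.27 and 13.08 in manganese, against 12.64, 12.76 and 12.83 in control, and a limma adjusted p of 0.198. The pyruvate kinase gene PKM was at 0.41 and PDK3, a kinase that inhibits pyruvate dehydrogenase, at 0.48. ENO1, ENO2, PKM and PDK3 had groups that did not overlap. Against control 2 alone the list median was 0.08.

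Around GLUL, genes that make or use glutamine and glutamate had 12 of 14 negative changes and a median of -0.21, both with GLUL counted. Of the 14, 0 passed the threshold and 6 had groups without overlap, all lower and GLUL among them (19.8% of all genes). PSAT1, a transaminase of serine synthesis, was at -0.35, the amidase gene NIT2 at -0.69, CAD, which starts pyrimidine synthesis, at -0.28 and the cytosolic aspartate transaminase gene GOT1 at -0.26. CAD gave 8.93, 8.88 and 8.85 in manganese, against 8.999, 9.21 and 9.27 in control, a separation that did not rest on control 1. NIT2 gave 6.23, 6.36 and 6.39 in manganese, against 7.62, 6.49 and 6.94 in control, and was highest in control 1. The list median was 0.02 against control 2 alone. Of the 19 genes of this list 14 were tested.

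Around ARG2, genes of arginine, urea cycle and polyamine metabolism had 12 of 20 positive changes and a median of 0.05, with 0 past the threshold and 0 of 20 without overlap. ODC1, the rate-limiting enzyme that turns ornithine into putrescine, was at -0.63 (95% interval -1.10 to -0.16, adjusted p 0.304). It gave 10.29, 10.57 and 10.27 in manganese, against 11.39, 10.56 and 11.06 in control, so control 2 lay within the manganese range. The argininosuccinate lyase gene ASL was at 0.38, the polyamine oxidase gene PAOX at 0.46 and the spermine synthase gene SMS at 0.29. Against control 1, 2 and 3 in turn, ASL was at 0.82, 0.04 and 0.30 and PAOX at 0.93, -0.09 and 0.55. SMS was at -0.04, 0.36 and 0.56, so PAOX and SMS changed sign with the control used.

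Around PPM1A and PPM1B, PP2C-type phosphatases had 11 of 17 positive changes and a median of 0.11, with 0 past the threshold and 2 of 17 without overlap. PDP1, which activates pyruvate dehydrogenase by removing its phosphate, was at 0.47, PPM1J at 0.50, PPM1M at 0.50 and PPM1E, a phosphatase of CaM kinases, at -0.53. Against control 1, 2 and 3 in turn, PPM1J was at 0.78, 0.07 and 0.66 and PPM1E at -1.13, -0.07 and -0.38. PPM1M had separated groups, with 6.61, 6.47 and 6.39 in manganese and 5.54, 6.34 and 6.10 in control. PPM1E was close to the filter, at 4.16 in manganese 1.

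Around XYLT1 and XYLT2, genes of the proteoglycan linker and of glycosaminoglycan chains had 12 of 18 negative changes and a median of -0.12. Of the 18, 0 passed the threshold and 3 had groups without overlap, XYLT2 among them. Leaving out control 1 brought that median to -0.035, and with control 2 as the sole control it was -0.0030, with 9 of 18 changes positive. B3GALT6 and B3GAT3, which add a galactose and the glucuronic acid of the linker after xylose, were at 0.30 and 0.31. B3GALT6 was 0.57, 0.11 and 0.21 higher than control 1, 2 and 3, and B3GAT3 was 0.70, 0.10 and 0.12 higher, so both differed most from control 1. B4GALT7, which adds the linker galactose next to xylose, was at 0.09 and the xylose kinase FAM20B at -0.40, and these 2 were chosen after their values were seen. EXTL3, which starts heparan sulfate chains, was at -0.18 and lower than each control by nearly the same amount, at -0.17, -0.17 and -0.19. SLC35B1, a nucleotide transporter, was at -0.44. By control 1, 2 and 3 in turn, SLC35B1 was at -0.68, -0.04 and -0.60, FAM20B at -0.96, -0.07 and -0.16 and B4GALT7 at 0.38, -0.16 and 0.05. Among β-1,4-galactosyltransferases and polypeptide GalNAc transferases, other Golgi enzymes that use manganese, 8 of 14 changes were negative with a median of -0.02, 0 passed, and 3 of 14 did not overlap. B4GALT5, a lactosylceramide synthase, was at -0.49, GALNT7 at -0.33, B4GALT6 at 0.22 and GALNT14 at -0.12. By control 1, 2 and 3, B4GALT5 was at -0.94, -0.16 and -0.35 and GALNT7 at -0.56, -0.05 and -0.40.

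Around PEPD and XPNPEP1, peptidases and genes of proline metabolism had 12 of 18 negative changes and a median of -0.05, with 0 past the threshold and 2 of 18 without overlap. METAP2, a methionine aminopeptidase with a metal pair at its active site, gave 5.68, 5.65 and 5.80 in manganese, against 6.57, 5.91 and 6.36 in control, a change of -0.57 (adjusted p 0.283) without overlap. XPNPEP3, the mitochondrial relative of XPNPEP1, was at -0.46 without overlap. DPP8 was at -0.63 and the lysosomal dipeptidyl peptidase gene DPP7 at 0.38. Against control 1, 2 and 3 in turn, DPP8 was at -0.84, -0.24 and -0.80 and DPP7 at 0.85, -0.03 and 0.31.

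**Figure D4:**
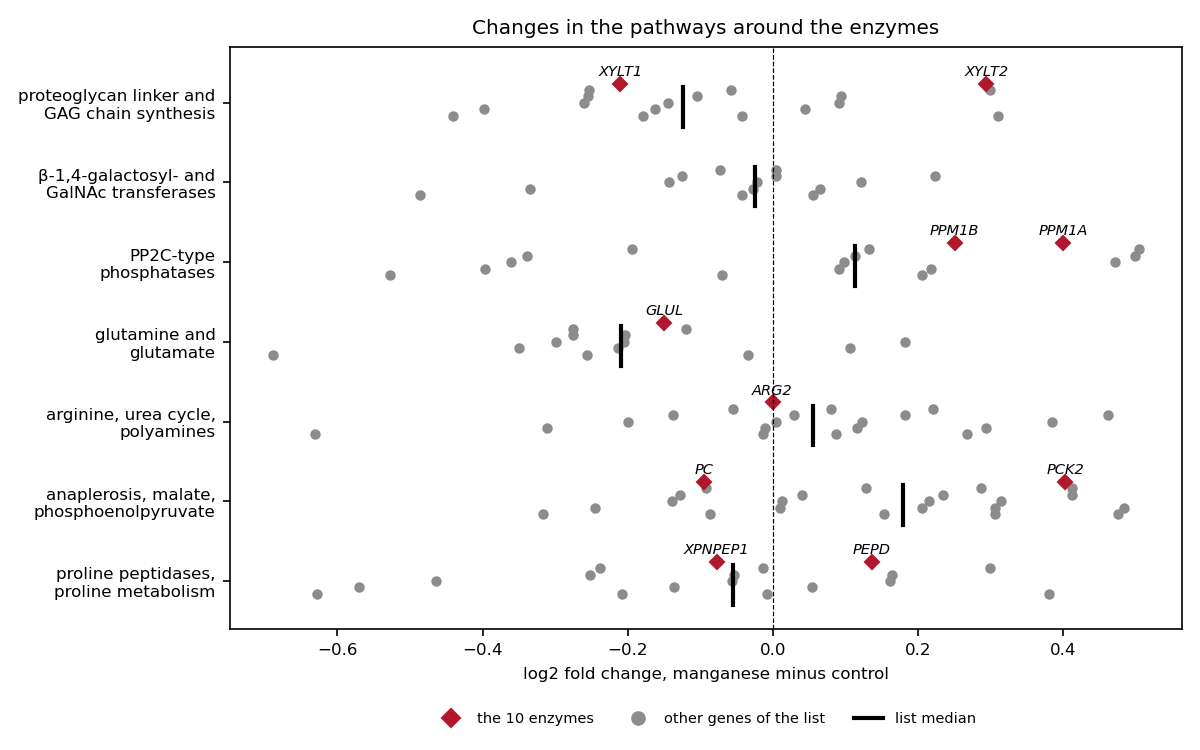
Log2 fold change, manganese minus control (x axis), of the genes tested in the 7 pathway lists, with red diamonds for the 10 enzymes, grey points for the other genes and a black bar at each list's median. The medians run from -0.21 for glutamine and glutamate to 0.18 for anaplerosis, and no point passed the threshold.

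The genes whose pattern over the 6 arrays was nearest to that of XYLT2, by the root mean square difference of values centred on each gene's mean, were FAM219A at 0.02, OR51I1 at 0.03 and ADAP1 at 0.03. Each was lowest in control 1, as XYLT2 was, and their changes were 0.31, 0.31 and 0.28. This is a description over 6 arrays that share the low value of that control.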

How the data were processed

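The deposited values are log2 expression for 49395 probe sets on 6 one-colour arrays. Per the submitters' processing notes the authors used RMA and Affymetrix Expression Console. No version, scan date or genome build is stated in the labels. RMA sets all arrays to one distribution, which removes a shift shared by most genes. Arrays give no counting depth, so their number limits the precision.

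Gene names came from the platform annotation. Probe sets above the 40th percentile of their array on at least 3 of 6 arrays were kept (29871), and for each of 13407 genes the one with the highest mean stood for the gene. Group was the only term in limma 3.58.1 (R 4.3.3, lmFit and eBayes), two-sided, with Benjamini-Hochberg adjustment over all genes, or over all probe sets, and a threshold of 0.05. Single differences had exact permutation tests. The script was tested on simulated arrays. Beyond the 10 enzymes, up to 4 genes per list were named, by smallest p, with 3 nearest genes. B4GALT7 and FAM20B of the proteoglycan list were added to these after their values were seen. The members, lists and tests were chosen with earlier results of these data known. Filter, variance model, weights, scaling, probe set rule, replicate block, a term for the controls of low spike-in level and each array were varied.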

Additional observations from a re-analysis of the deposited data

How the results depend on the processing

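The 10 enzymes were fitted under 16 alternatives, and 0 passed an adjusted p of 0.05 in 15 of them, with 0 to 2 at an unadjusted p under 0.05. Leaving out 1 array at a time gave 0 to 2 enzymes at that unadjusted p, against 832 to 3010 of all 13407 genes. With array weights, which stopped before convergence and gave control 3 a weight of 8.22, 4 of 10 enzymes were called. That fit called 3945 of 13407 genes (29.4%) and 43 of 125 list genes. It also called 3 of 20 enzyme probe sets, against 5364 of all 29871. ARG2 was then 0.34, and second probe sets stood at -0.15 for PPM1A, 0.22 for ARG2 and -0.080 for PC, with the gene-specific GLUL probe set at -0.031. Of 159 recomputed changes of the enzymes 20 turned sign, and PPM1B, XYLT2, PCK2 and PPM1A were positive in every fit. XYLT1 did not pass the 60th percentile filter and has no value there.

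Against control 2 alone, and with spike-in level as a term, which gives the same changes, ARG2 was at 0.15, XYLT1 at 0.049, PEPD at -0.043 and XPNPEP1 at 0.16. The second ARG2 probe set was then at 0.29 and the gene-specific GLUL probe set at -0.11, and list medians were 0.025 for glutamine, -0.045 for arginine and 0.076 for anaplerosis. With 1 control, its spread is taken to equal that of the manganese arrays. These fits called 5 and 2 genes, and 7 and 5 probe sets. Whether the replicate numbers pair the arrays is not known. Deviations of same-numbered arrays correlated at -0.30, 0.15 and -0.27. With so few arrays per group, and control 1 far from the rest, these values cannot decide it. The replicate block gave 6 genes and 15 probe sets.

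With the mean of a gene's probe sets XPNPEP1 was at 0.017 and the anaplerosis median at 0.089. With the most variable probe set GLUL was at 0.12, the arginine median at 0.13 and the anaplerosis median at 0.074. The PP2C-type median was 0.17 with the 60th percentile filter and 0.16 with array weights, where the median of galactosyl and GalNAc transferases was -0.067.

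Leaving out 1 array at a time gave 0 genes without control 3 or any 1 manganese array (832 to 1223 at an unadjusted p under 0.05) and 43 without control 2, and 0 to 75 probe sets. Ranges were -0.19 to 0.26 for ARG2, -0.34 to 0.15 for PC, -0.39 to 0.035 for XYLT1, -0.013 to 0.23 for PEPD and -0.20 to 0.034 for XPNPEP1. Those of other probe sets were -0.21 to 0.27 for ARG2, -0.077 to 0.23 for GLUL, -0.049 to 0.082 for PC, -0.083 to 0.17 for PPM1A and -0.031 to 0.27 for PPM1B. PPM1B ran from 0.076 to 0.43, PPM1A from 0.23 to 0.62 and PCK2 from 0.19 to 0.56. The difference PEPD minus XPNPEP1 ran from -0.047 to 0.42 and PPM1A minus PPM1B from -0.0040 to 0.27. PC minus PCK2 stayed between -0.56 and -0.40, and XYLT1 minus XYLT2 between -0.70 and -0.17. List medians ran from 0.11 to 0.25 for anaplerosis, -0.29 to -0.090 for glutamine, -0.19 to -0.035 for the proteoglycan linker, 0.019 to 0.084 for arginine and from -0.088 to -0.0072 for proline peptidases. Without control 1 or without manganese 3, 4 enzymes had groups that did not overlap. Groups separate more easily by chance with an array left out, and the share over all genes was not computed there. A clearer response cannot be read from that count. The cause of the shifts in values with an array left out was not tested. XYLT1 was removed by the 60th percentile filter, and whether low signal limits its value was not tested.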
